A study of Mus musculus with 2 samples.

Results

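The Ly6 and uPAR domain genes were followed in medullary thymic epithelial cells (mTECs), thymic cells whose role is to show tissue proteins to maturing T cells. A row of the gene table was taken as a member if its symbol began with Ly6 or Lypd, or was Slurp1, Psca, Lynx1, Gml, Plaur, Tex101, Pate4, Spaca4, Gpihbp1 or Cd177. This gave 33 members among 23997 gene rows. The rule reads gene symbols only, and the family was chosen for study with earlier results of these data known. RNA was sequenced from mTECs with high surface MHC class II of C57BL/6 mice, in 1 library of genotype WT and 1 of genotype Aire-/-, called Aire-KO here. Aire, a nuclear protein, switches on many tissue-restricted genes in mTECs. Each library came from cells of pooled mice isolated on a flow cytometer. The sources used here do not give the targeted allele, the number of mice pooled, or their age and sex.

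Proteins of this family carry a compact domain in which disulfide bonds between cysteines hold 3 finger-like loops. Most are tethered to the outer membrane by a glycosylphosphatidylinositol (GPI) anchor, and a few are secreted. Members serve as leukocyte antigens, skin and gut surface proteins, modulators of nicotinic acetylcholine receptors, the urokinase receptor and sperm proteins, and many sit side by side in clusters of duplicated genes.

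The family signature can be read directly in the coding sequences. Near the end of the domain lie a pair of adjacent cysteine codons and, after a short spacer, a cysteine followed by an asparagine. With a spacer of 4 or 5 codons, searched in the reading frame of GENCODE M21 transcripts, this pattern occurred in 29 of 33 members (87.9%). It occurred in 76 of 21764 genes with a coding sequence (0.349%), members included. The stretches below are shown because they carry this signature in members called lower and in members called neither in the comparison that follows. Capitals mark the cysteine pair and the cysteine-asparagine pair.
Ly6d: TGCTGCcagactgacctaTGCAAC
Psca: TGCTGCtactctgacctgTGCAAT
Slurp1: TGTTGCttccgtgacctcTGCAAC
Lypd2: TGCTGCaattctgacctaTGCAAC
Ly6a: TGTTGCcaggaagacctcTGCAAT
Ly6i: TGTTGCcaggaagacctcTGCAAT
Ly6c1: TGTTGCagcgaagacctcTGCAAT
Ly6c2: TGTTGCagcgaagacctcTGCAAT
Ly6h: TGCTGCgagaaagatttgTGCAAC
Lypd6: TGCTGTgaaggaaatatcTGTAAT
All 29 matches had a spacer of 4 codons. The members without the pattern were Cd177, Tex101, Lypd4 and Ly6g6f, the last of which encodes an immunoglobulin-type protein. Cysteine made up a median of 7.91% of the codons in members and 2.13% in all genes with a coding sequence. The coding stretches of Ly6a and Ly6i are identical, and so are those of Ly6c1 and Ly6c2.

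Expression was measured as FPKM (a fragment count scaled by transcript length and library size). In what follows paired values give the WT library first and the Aire-KO library second. A gene was called lower or higher when log2((Aire-KO + 0.1)/(WT + 0.1)) reached a 2-fold difference, provided that the mean of both libraries was at least 0.5 FPKM. The rule judges size alone. With 1 library per genotype there is no test and no spread between animals, and the intervals given cover counting error only. Low values across the table lay mostly on whole multiples of a step, which implies about 46900000 and 54600000 fragments. A count of 0 then allows up to 0.0780 and 0.0670 FPKM for a transcript of 1000 bp, with 180 bp taken off its length. Aire itself stood at 220.6 and 640.2 FPKM, so its transcript neither bears out nor contradicts the genotype labels, and each direction is that of the labelled libraries. Of 12 mTEC markers, 11 were neither lower nor higher, with H2-Aa at 8398 and 11948 FPKM and H2-Ab1 at 7283 and 10067 FPKM, and Aire was the higher one.

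Most members were lower in the Aire-KO library. Of 30 members that reached the minimum, 22 (73.3%) were lower, none was higher and 8 were neither. Across all 15906 genes that reached it, 20.5% were lower, 7.09% higher and 72.4% neither. The median log2 ratio of the members was -2.81, against 0.05 over all genes. At a 4-fold rule 21 members were lower, against 11.9% of all genes, and at an 8-fold rule 13 members, against 6.88%. Weakly expressed genes were lower more often than others across the table, so the members were also read by level. At a mean of 0.5 to 5 FPKM, 7 of 8 members were lower, against 35.6% of other genes. From 5 to 50 FPKM the count was 7 of 12, against 11% of other genes, and from 50 FPKM upward 8 of 10, against 10.4%. Near the minimum, a gene almost absent from 1 library passes only through the other, so the filter nearly fixes its call. This holds for Pate4 (1.12 FPKM and listed at 0) and Gml (1.20 and 0.127 FPKM) in the weakest band. The same filter applied to the other genes. Members that share reads or position are not independent of each other, and these shares are descriptions.

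**Figure D1:**
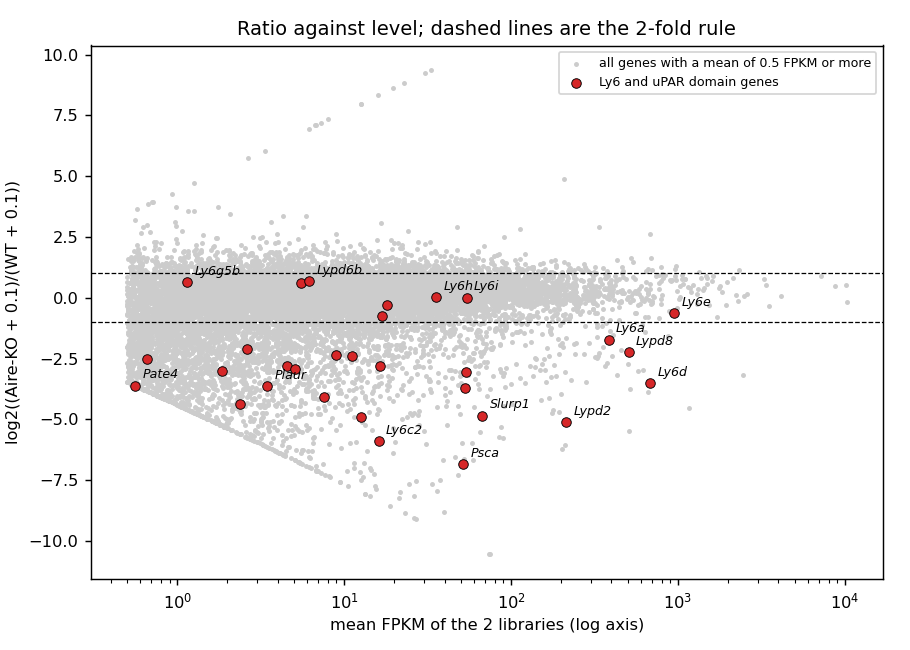
Log2 ratio of the Aire-KO to the WT library against mean FPKM (log axis) for all 15906 genes whose mean reached 0.5 FPKM (grey) and the 30 members among them (red), with dashed lines at a 2-fold difference. Members lie below the lower line at weak and strong levels alike, and none lies above the upper line.

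Summed over all 33 members, the levels were 4994 and 1404 FPKM, 3.56 times as much in the WT library. Ly6d, Ly6e, Lypd8 and Ly6a together made up 76.9% of the sum in the WT library and 86.6% in the Aire-KO library. At 100 FPKM or more there were 7 members in the WT library and 4 in the Aire-KO library, while the number under 1 FPKM was 4 and 13. The family thus spans strongly expressed and barely detected genes in both libraries.

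**Figure D2:**
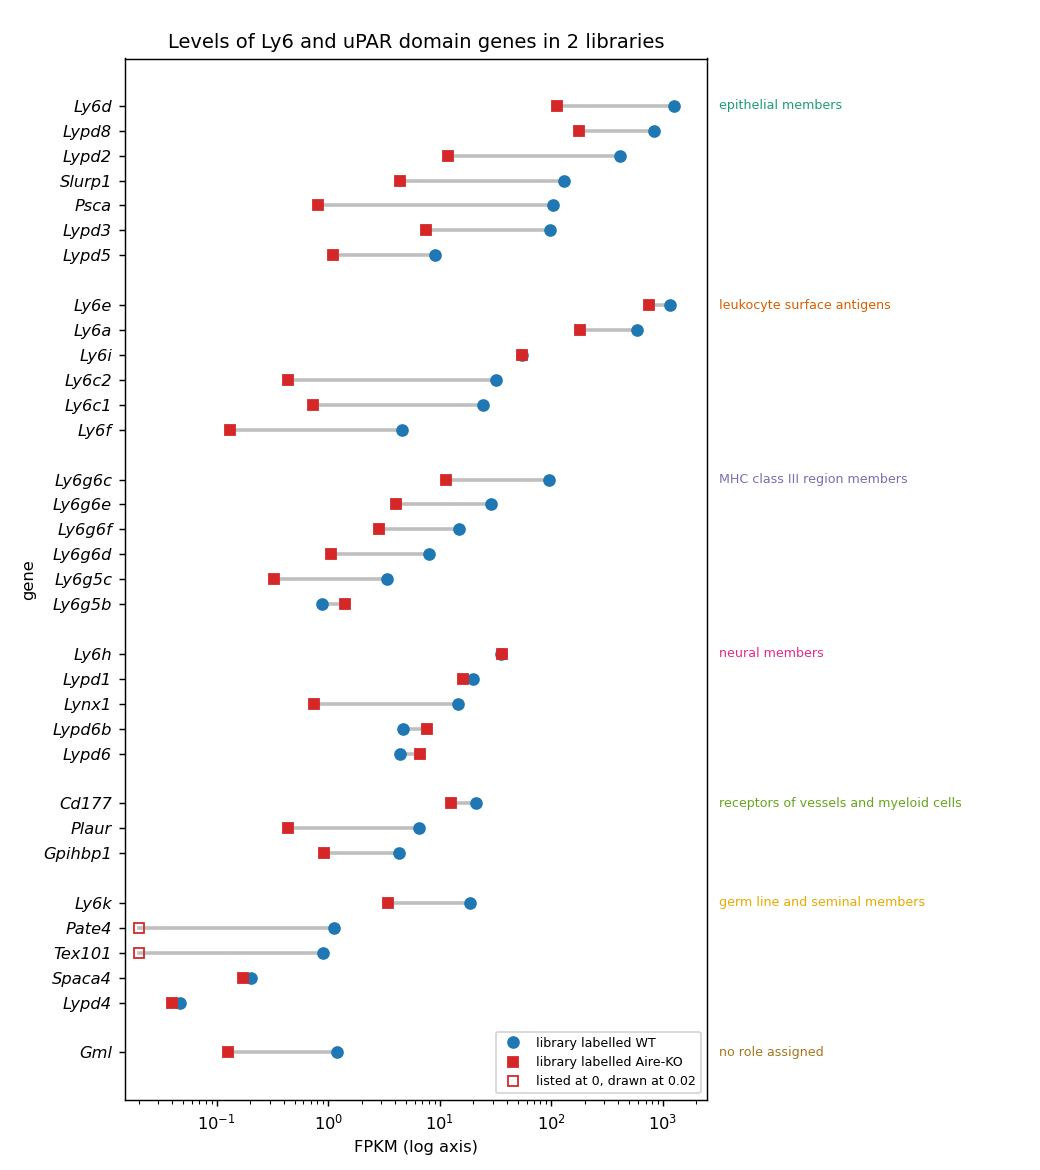
FPKM on a log axis for each of the 33 members in the WT library (circles) and the Aire-KO library (squares), grouped by known role, with open squares at the left edge for the 2 members listed at 0. Every epithelial member has its square to the left of its circle, whereas the symbols of Ly6i and Ly6h nearly coincide.

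All 7 epithelial members were lower, with a median log2 ratio of -3.69. Roles were assigned with earlier results of these data known, so counts by role are descriptions. Ly6d, a surface antigen of keratinocytes and of early B lineage cells, stood at 1257 and 111.5 FPKM, an 11.3-fold difference (log2 -3.49, 95% counting interval -3.55 to -3.44). It ranked 26th in the WT library and 812th in the Aire-KO library among gene rows with an estimate. Lypd8, a glycoprotein that keeps motile bacteria away from the colon surface, stood at 836.0 and 178.2 FPKM, a 4.69-fold difference. The remaining epithelial members were far weaker in the Aire-KO library. Lypd2 stood at 416.4 and 11.98 FPKM, a 34.8-fold difference. Slurp1, a secreted keratinocyte protein, stood at 130.1 and 4.42 FPKM, a 29.4-fold difference. Psca, the prostate stem cell antigen of stomach and urogenital epithelium, stood at 102.7 and 0.807 FPKM, a 127.3-fold difference and the largest ratio of any member with a value in both libraries. Its value in the Aire-KO library rested on about 30 fragments, which gives a log2 ratio without pseudocount of -6.99 with an interval from -7.56 to -6.48. Lypd3, a surface protein of suprabasal keratinocytes, stood at 98.3 and 7.50 FPKM, and Lypd5 at 8.99 and 1.11 FPKM. In sum the epithelial members reached 2849 and 315.5 FPKM.

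Markers of keratinocyte-type mTECs moved with these members. All 8 measured of 9 listed markers were lower, with a median log2 ratio of -2.65 and a summed level of 2592 and 356.7 FPKM. Krtdap stood at 1087 and 140.2 FPKM, Dmkn at 649.1 and 100.5 FPKM, Krt10 at 372.5 and 14.3 FPKM and Krt1 at 99.9 and 1.49 FPKM. None of these markers was at 0. Their part in the lower levels of the epithelial members was not tested, and in RNA from whole sorted populations fewer cells of a type and less RNA per cell cannot be told apart.

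Among the leukocyte surface antigens 4 of 6 were lower, and neighbouring genes differed from each other. Ly6e, an interferon-induced antigen, was high in both libraries at 1155 and 747.4 FPKM, a 1.55-fold difference that did not reach the rule. Ly6a, known as Sca-1 on blood stem cells and activated lymphocytes, stood at 590.4 and 179.1 FPKM, a 3.30-fold difference and the smallest among members called lower. Ly6i, its closest relative among the members at 86.3% identity of coding sequence, stood at 54.2 and 54.5 FPKM. The log2 ratio of Ly6i was 0.01 with an interval from -0.07 to 0.09, and its sign turned when libraries were scaled to equal sums or centred on the median gene. Ly6a and Ly6i are adjacent genes that share the coding stretch printed above, yet 1 was lower and the other was not. Ly6c1 and Ly6c2, which encode the Ly6C antigen of monocytes, endothelium and T cells, stood at 24.5 and 0.734 FPKM and at 31.7 and 0.439 FPKM. Ly6f stood at 4.63 and 0.130 FPKM. In the Aire-KO library these values rested on about 27, 15 and 5 fragments, so the order among them is not resolved.

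How reads were divided between near-identical genes bears on these levels. Ly6c1 and Ly6c2 share 97.7% of their coding sequence, and Ly6a and Ly6f share 84.6%, so the FPKM values of Ly6a, Ly6c1, Ly6c2, Ly6f and Ly6i depend on how the authors' tool assigned shared reads. Without these 5 members, 18 of 25 were lower and the median log2 ratio was -2.80.

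Several markers of leukocytes and endothelium were also lower. All 8 measured of 12 neutrophil markers were lower, with a median log2 ratio of -4.52 and a summed level of 1313 and 107.7 FPKM. S100a8 stood at 781.5 and 87.0 FPKM, S100a9 at 342.7 and 13.9 FPKM, Ltf at 61.2 and 0.853 FPKM and Mpo at 21.5 and 0.241 FPKM. The remaining neutrophil markers were under the minimum and weak in the WT library too. Elane, Csf3r, Cxcr2 and Mmp8 reached only 0.375, 0.538, 0.768 and 0.828 FPKM there, and Elane was listed at 0 in the Aire-KO library. Of 8 measured monocyte and macrophage markers 6 were lower, and the list summed to 143.1 and 69.7 FPKM. Cd14 stood at 59.9 and 5.57 FPKM and Itgam at 9.40 and 0.614 FPKM, whereas Cd68 stood at 24.1 and 33.1 FPKM. Of 9 T cell markers 3 were lower and 1 higher (55.0 and 71.4 FPKM in sum), the latter Tcf7 at 21.6 and 51.6 FPKM. These T cell counts are near the shares over all genes, 20.5% lower and 7.09% higher. At a mean of 0.5 to 5 FPKM, 35.6% of other genes were lower. Cd3g stood at 7.63 and 2.73 FPKM and Ptprc, with the lowest ratio of the list, at 1.95 and 0.626 FPKM. Of 5 measured endothelial markers 3 were lower (25.5 and 13.02 FPKM in sum), with Pecam1 at 7.28 and 2.65 FPKM, Cdh5 at 2.62 and 0.222 FPKM and Tek at 5.92 and 4.30 FPKM. Vwf stood at 4.54 and 5.34 FPKM. Fcgr1, at only 0.0966 FPKM in the WT library, was the monocyte marker listed at 0 in the Aire-KO library. No T cell or endothelial marker was at 0. Whether such cells were in the sorted populations, and any part of theirs in the levels of Ly6c1, Ly6c2, Ly6a and Ly6f, was not tested.

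Of 5 neural members 4 were neither lower nor higher, and the median log2 ratio of the 5 was 0.03. Ly6h, a brain protein that binds nicotinic receptors, stood at 35.2 and 36.0 FPKM, with an interval of the log2 ratio from -0.07 to 0.14 and a sign that turned under both rescalings. Lypd1 stood at 19.9 and 16.3 FPKM. Lypd6 and Lypd6b, neighbours on chromosome 2 whose products act on nicotinic receptors and Wnt signalling, stood at 4.37 and 6.69 FPKM and at 4.72 and 7.66 FPKM. Their log2 ratios of 0.60 and 0.69 had counting intervals above 0 and did not reach the rule. Lynx1, the GPI-anchored modulator that dampens nicotinic receptors, was the exception at 14.4 and 0.751 FPKM, a 19.2-fold difference (log2 without pseudocount -4.26, interval -4.50 to -4.03). Lynx1 lies in the chromosome 15 cluster next to 2300005B03Rik, the gene now named Slurp2, which stood at 33.3 and 0.439 FPKM, and reads shared by these adjoining genes cannot be assigned here.

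Nicotinic receptor subunits, the partners of Lynx1, Ly6h, Lypd1, Lypd6 and Slurp1, were mostly neither. Of 13 measured subunits 3 were lower and none higher, and the median log2 ratio was -0.09. These counts are near the shares over all genes given above. The lowest ratios were those of Chrna1 (2.37 and 0.431 FPKM) and Chrna2 (1.76 and 0.357 FPKM), both weak. The highest levels were those of Chrna5 at 9.27 and 14.0 FPKM and Chrna10 at 11.5 and 9.48 FPKM.

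Of the receptors of vessels and myeloid cells, Plaur and Gpihbp1 were lower and Cd177 was not. Plaur, the urokinase receptor that gives the domain its other name, stood at 6.51 and 0.436 FPKM, a 14.9-fold difference (log2 without pseudocount -3.90, interval -4.47 to -3.38). Gpihbp1, which carries lipoprotein lipase across capillary endothelium, stood at 4.30 and 0.912 FPKM. Cd177, a neutrophil surface protein, stood at 21.1 and 12.6 FPKM, a 1.67-fold difference and the nearest to the rule among members called neither (log2 -0.73). Beside them, 3 of 5 measured endothelial markers (median log2 ratio -1.43), all 8 neutrophil markers and 6 of 8 monocyte and macrophage markers were lower, as given above. Whether those cells were present, and any part of theirs in these levels, was not tested.

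The urokinase system around Plaur was mixed. Of 9 measured genes, Plaur included, 4 were lower and none higher, against 20.5% and 7.09% of all genes. The median log2 ratio was -0.96. Plau, which encodes urokinase, stood at 32.6 and 16.7 FPKM, just short of the rule (log2 -0.96). Serpinb2, an inhibitor of urokinase, stood at 385.1 and 106.4 FPKM. The protease Mmp9 stood at 31.4 and 44.6 FPKM. Around Gpihbp1, 3 of 7 genes of lipoprotein lipase handling were lower, with a median of -0.60. Apoc2, the cofactor of lipoprotein lipase, stood at 243.2 and 33.4 FPKM and Apoa5 at 1.92 and 0.103 FPKM, whereas Lpl itself stood at 10.7 and 7.01 FPKM and Lmf1 at 14.7 and 19.9 FPKM.

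The members of the MHC class III region on chromosome 17 were lower in 5 of 6 cases, with a median log2 ratio of -2.81. Ly6g6c was the strongest at 95.8 and 11.4 FPKM, an 8.40-fold difference. Ly6g6e stood at 28.9 and 4.04 FPKM, Ly6g6f at 14.99 and 2.86 FPKM and Ly6g6d at 8.06 and 1.06 FPKM. These 4 adjoining genes had log2 ratios between -3.06 and -2.35. Ly6g5c stood at 3.39 and 0.329 FPKM, the latter on about 6 fragments. Its neighbour Ly6g5b went the other way at 0.877 and 1.42 FPKM, a log2 ratio of 0.64 that did not reach the rule and rested on about 36 and 67 fragments.

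Among germ line and seminal members Ly6k was the strongest, and the others stood near 1 FPKM or lower in the WT library. Ly6k, a testis protein needed for sperm to reach the egg, stood at 18.8 and 3.46 FPKM, a 5.44-fold difference. Pate4, a seminal vesicle protein, stood at 1.12 FPKM in the WT library and was listed at 0 in the Aire-KO library. Both were lower. Tex101, the germ cell partner of Ly6k, stood at 0.902 FPKM and was listed at 0, but its mean was under the minimum. Spaca4 and Lypd4, also sperm proteins, lay between 0.0399 and 0.202 FPKM in both libraries, on 3 to 5 fragments. Gml, to which no role was assigned, was lower at 1.20 and 0.127 FPKM, on about 40 and 5 fragments. Of 3 measured testis germ cell markers 2 were lower, Prm1 at 6.38 and 0.962 FPKM and Ddx4 at 0.963 and 0.121 FPKM. Another 2 of the 8 listed, Tnp1 and Odf1, were at 0 in the Aire-KO library. They reached only 0.0888 and 0.345 FPKM in the WT library. Of 5 measured partners in sperm-egg binding 2 were lower, against 20.5% of all genes. They were Ace at 4.80 and 0.269 FPKM and Folr4, now named Izumo1r, at 3.11 and 0.194 FPKM. Cd9 stood at 344.5 and 293.0 FPKM and Izumo1 at 2.84 and 5.51 FPKM.

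Position gave a further view of the members. The largest cluster, on chromosome 15 from Psca to Gpihbp1 (chr15:74714839-75598213, mm10), spans 883.4 kb and holds 15 members, all measured, of which 12 were lower. The exceptions were Ly6e, Ly6i and Ly6h. Another 8 genes lie between the members there. All 7 that were measured were also lower, against 20.5% of all genes, with a median log2 ratio of -3.67. Of these, 4 carry the cysteine signature under other names. They are 2300005B03Rik (Slurp2), D730001G18Rik (Ly6g6g, 23.7 and 1.76 FPKM), Hemt1 (Gml2, 1.58 and 0.0583 FPKM) and 2010109I03Rik (Ly6m, 33.8 and 2.36 FPKM). The other 3 do not carry it: Them6 (9.77 and 3.88 FPKM) and the steroid hydroxylase genes Cyp11b1 (1.25 FPKM and listed at 0) and Cyp11b2 (0.969 and 0.203 FPKM). Hemt1, Cyp11b1 and Cyp11b2 reached the minimum only through the WT library, so the filter nearly fixes their calls. Among the genes without the signature this leaves Them6 alone.

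On chromosome 7 members and other genes differed. The stretch from Lypd5 to Lypd4 (chr7:24349224-24869691) spans 520.5 kb with 6 members, of which 4 were measured and 3 lower. Of 14 other measured genes in it 3 were lower and 11 neither, near the shares over all genes (20.5% and 72.4%). Their median log2 ratio was -0.08. The lower ones were Pinlyp (105.5 and 35.9 FPKM), which carries the cysteine signature, Gm4763 (now Lypd11, 1.52 FPKM and listed at 0) and Irgc1 (1.09 FPKM and listed at 0). Gm4763 and Irgc1 reached the minimum only through the WT library, so the filter nearly fixes their calls. The DNA repair gene Xrcc1 stood at 24.0 and 31.6 FPKM and Smg9, of RNA surveillance, at 15.9 and 20.8 FPKM, although both lie between members that were lower. On chromosome 17 (chr17:35067325-35115400, 48.1 kb) the lipase gene Abhd16a, between Ly6g6f and Ly6g5c, stood at 53.2 and 48.6 FPKM.

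**Figure D3:**
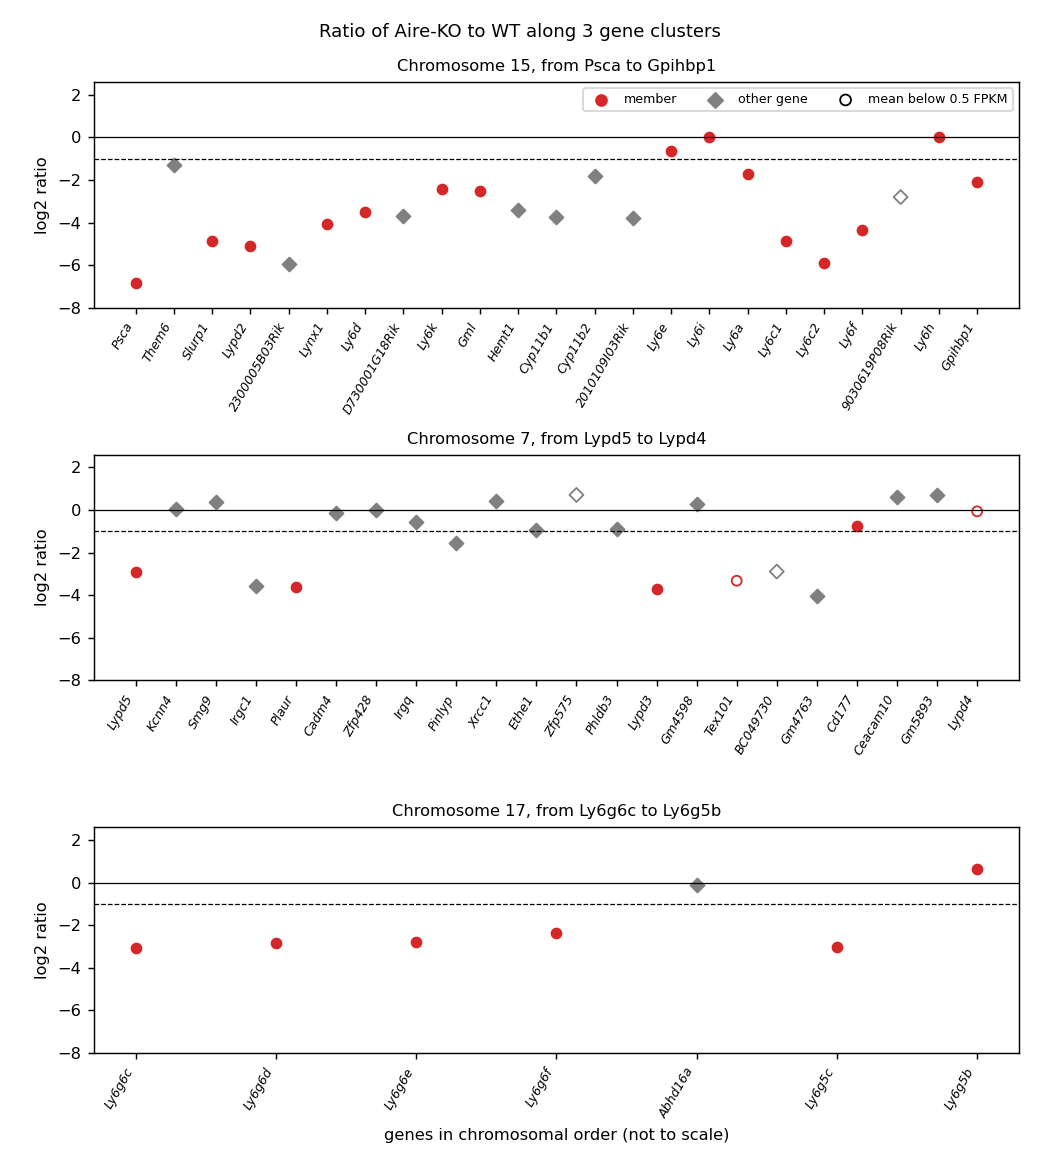
Log2 ratio of Aire-KO to WT for members (red circles) and the genes between them (grey diamonds) in chromosomal order, not to scale, in the clusters on chromosomes 15, 7 and 17, with open symbols for genes below a mean of 0.5 FPKM and a dashed line at 2-fold lower. On chromosome 15 members and other genes alike lie below the line apart from Ly6e, Ly6i and Ly6h, whereas on chromosome 7 most other genes lie near 0.

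Promoter sequence was available for 18 of 33 members from RefSeq (assembly GRCm38.p6), as 250 bases before and 50 after the RefSeq start of each gene. That start lay 3676 bases from the start of the gene row for Spaca4 and 109 bases for Ly6g5b, so these windows may not be the promoters behind the measured levels, and within 28 bases for the other 16. The dinucleotide CG occurred a median of 4.5 times in these windows, against 7 over 27025 promoters. It occurred a median of 3 times in the 11 lower members and 8 times in the 4 called neither, whose own counts were 31 in Lypd6, 12 in Lypd1, 4 in Cd177 and 0 in Ly6g5b. The 100 bases before the gene start are shown for Ly6c2, the member with the lowest ratio among these, and for Lypd6, the member richest in CG, with each CG in capitals.
Ly6c2 (chr15:75111938-75112037, minus strand): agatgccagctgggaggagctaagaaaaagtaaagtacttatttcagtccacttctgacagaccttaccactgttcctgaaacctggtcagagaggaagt
Lypd6 (chr2:50066329-50066428, plus strand): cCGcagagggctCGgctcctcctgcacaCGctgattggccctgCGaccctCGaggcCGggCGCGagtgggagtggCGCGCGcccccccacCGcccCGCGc
The Ly6c2 stretch holds no CG and the Lypd6 stretch 14. The letters TATAAA, searched on both strands, occurred in 4 of 18 members, against 14.2% of all promoters. They were found in Ly6g6c, Ly6c1 and Ly6f, which were lower, and in Cd177, which was neither. In Ly6g6c they begin 30 bases before the gene start, shown here with TATAAA in capitals.
Ly6g6c (chr17:35067285-35067324, plus strand): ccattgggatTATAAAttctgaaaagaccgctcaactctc
A match is a description of the letters and says nothing of a factor.

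The isoform table listed more than 1 isoform for 6 members. Shares of the gene's FPKM were stable in most and differed in Ly6a and Ly6c1. In Ly6a, isoform NM_010738 stood at 300.5 and 42.0 FPKM and NM_001271419 at 276.3 and 137.1 FPKM. The former made up 50.9% of the gene in the WT library and 23.5% in the Aire-KO library, and the latter 46.8% and 76.5%. In Ly6c1, NM_010741 made up 75.0% and 100.0%, the latter of a gene at 0.734 FPKM. The main isoform of Lypd8, NM_001083884, made up 92.5% and 93.9%, that of Ly6h, NM_001135689, 81.6% and 75.5%, and that of Ly6e, NM_001164038, 52.2% and 49.0%. The error of dividing reads between overlapping isoforms was not measured.

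**Figure D4:**
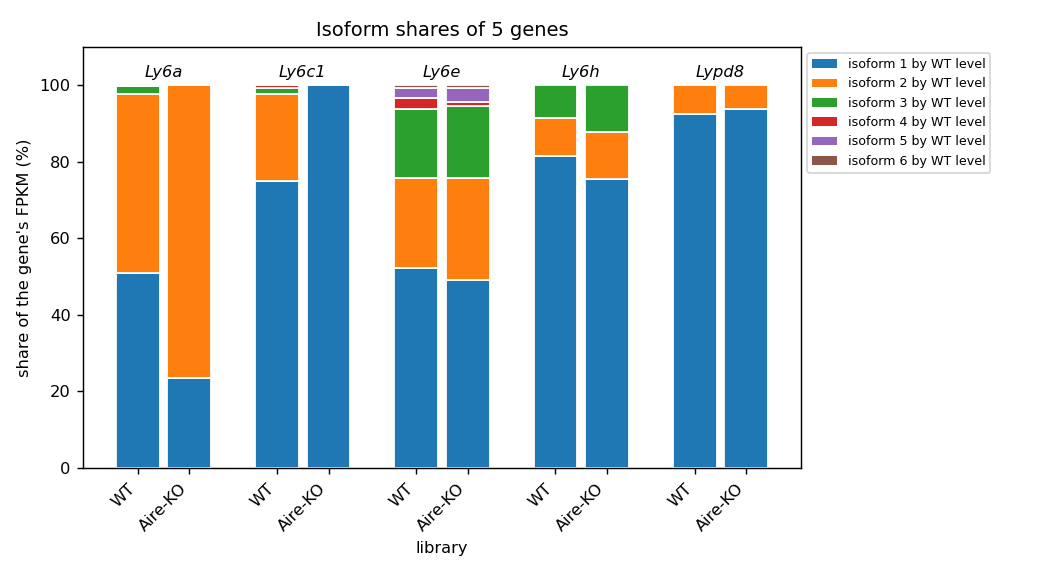
Share of each isoform in its gene's FPKM, in percent, for Ly6a, Ly6c1, Ly6e, Ly6h and Lypd8 in the WT and Aire-KO libraries, with isoforms coloured by their order of level in the WT library. The 2 main isoforms of Ly6a change places, from 50.9% and 46.8% to 23.5% and 76.5%, while the shares of Ly6e and Lypd8 differ little.

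The machinery that makes and attaches GPI anchors did not share the lower levels of the anchored members. Of 26 measured genes none was lower and none higher, with a median log2 ratio of 0.04 and sums of 490.1 and 478.6 FPKM. Dpm2 stood at 72.9 and 60.2 FPKM, Dpm3 at 57.8 and 64.9 FPKM, and Pgap2 had the lowest ratio at 37.1 and 22.5 FPKM. Listed genes of the same fold outside the naming rule were mixed. Of 20 measured, 9 were lower and 1 higher, against 20.5% and 7.09% of all genes, with a median of -0.62. These counts depend on the make-up of the list. It holds receptor genes such as Tgfbr2, Acvr1 and Bmpr2, which were neither. It leaves out Ly6m, Ly6g6g and Lypd11, which lie between members and were lower. Slurp2 and Gm7257, now named Pate12 (3.83 FPKM and listed at 0), had the lowest ratios on the pseudocount scale, and the receptor gene Tgfbr1 was higher at 6.62 and 14.9 FPKM.

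**Figure D5:**
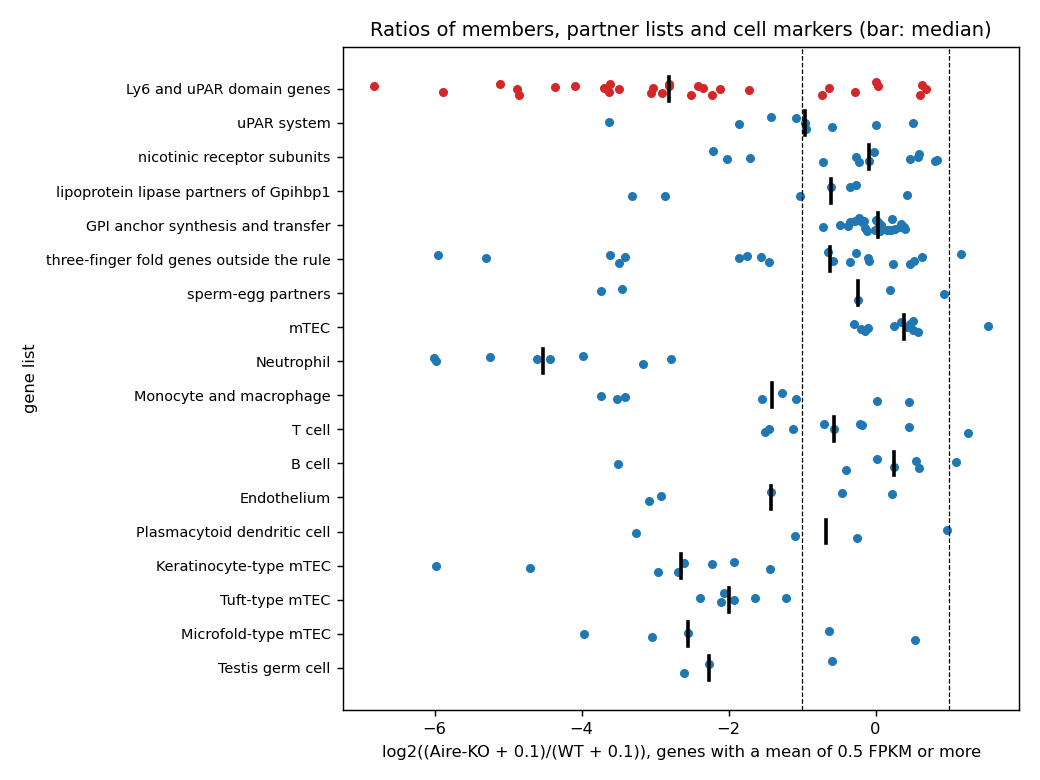
Log2 ratio of each measured gene in the Ly6 and uPAR domain family (red), in lists of partners and in cell type markers (blue), with a bar at each median and dashed lines at 2-fold. The family median of -2.81 lies below that of every partner list and between those of the neutrophil (-4.52) and keratinocyte-type (-2.65) markers, while the GPI anchor genes cluster at 0.04.

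Significance was assigned to 1 member, Ly6d, in the authors' deposited table, with a q of 0.0297. Lypd2 had a q of 0.0808, Pate4 and Tex101 of 0.125 and Psca of 0.176 in the authors' deposited table. These q values compare 2 libraries and not 2 genotypes.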

How the data were processed

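FPKM values of genes and of isoforms in the 2 libraries were deposited by the authors in separate tables, with a p-value and q-value per row for the comparison of these libraries. Per the labels' protocols, RNA was extracted with Trizol and sequenced from stranded mRNA libraries. TopHat2, Cuffdiff and build mm10 are named in the submitters' processing notes. The sources used here give no versions, annotation or scaling.

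Ratios, the 2-fold rule, the pseudocount of 0.1 FPKM and the minimum mean of 0.5 FPKM are as stated in the text. The pseudocount understates the change of low genes. In 5 gene rows, none a member, the authors' tool gave no estimate for high coverage. These were treated as missing, a departure from the plan chosen after seeing the data. Members, roles and lists were chosen with earlier results of these data known. Every member is accounted for, with values where its mean reached 0.5 FPKM or a library reached 1 FPKM. From each list at most 4 genes are named, by largest difference and highest level. Named besides are markers listed at 0, neutrophil markers under the minimum and a marker nearly absent in both libraries (Siglech). So are Lpl, the ligand of Gpihbp1, Plau, which encodes urokinase, and genes between members in clusters. RefSeq synonyms and positions gave newer symbols.

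Fragments were estimated from the step of low values in genes with 1 isoform of 500 bp or more, with 180 bp taken off the length. Of 648 and 1124 low values, 81.2% and 79.4% lay within 0.1 of a whole multiple, but step and length were fitted to these values. Intervals are exact conditional binomial (95%), without pseudocount, for 30 members. Slurp1 had no usable length. They cover counting error only, as fragments lack molecular identifiers. Coding sequences came from GENCODE M21, and identity is that of aligned coding sequences. The procedures were tested on simulated data. Software was Python 3.11.15, pandas 2.3.3, scipy 1.17.1, Biopython 1.88 and matplotlib 3.10.9.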

Additional observations from a re-analysis of the deposited data

How the results depend on the processing

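Under 11 alternatives the number of lower members stayed between 18 and 23 and the number of higher members at 0. The lowest count, 18 of 25, came from leaving out members with a close paralog. Filters on row status and on joined symbols touch no member, and isoform sums nearly equal the gene values, so these alternatives could not change the counts. The median log2 ratio of the members, -2.81, was -2.96 with a pseudocount of 0.01 FPKM, -2.14 with 1 FPKM, -2.94 with each library scaled to the same sum and -2.86 when centred on the median gene, a shift of 0.05. It moved by less under the others, which included leaving out members with a close paralog, an alternative chosen after seeing the data. A pseudocount of 1 FPKM ended the call of Gml, the 4-fold rule that of Ly6a, and a minimum mean of 2 FPKM, with 19 lower, those of Ly6g5c, Gml and Pate4. Scaling to the same sum and using no minimum each brought Tex101 into the calls. The 5 alternatives tried for single members could hardly turn the sign of a called member. A pseudocount keeps the sign, and isoform sums nearly equal the gene values. Both rescalings made the ratios of called members slightly more negative. Ly6i and Ly6h, which were called neither, changed sign under both rescalings. Leaving out members by protein identity was not run, since no protein table was used here. No paired analysis was possible because there is 1 library per genotype, and for the same reason no library could be left out. Depth limits the members that rest on few fragments in the Aire-KO library, among them Ly6f, Gml and Ly6g5c.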

Other observations

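Markers of other mTEC types and of cells that were not set beside a group of members also differed. All 6 tuft-type markers were lower, with a median log2 ratio of -1.99. Avil stood at 122.4 and 28.4 FPKM and the taste channel gene Trpm5 at 57.1 and 10.8 FPKM. Of 5 microfold-type markers 3 were lower, with Gp2 at 375.3 and 24.0 FPKM and Ccl20 at 375.5 and 45.3 FPKM, while the regulator Spib stood at 180.8 and 262.5 FPKM. Among 7 B cell markers, listed because Ly6d also marks early B lineage cells, 1 was lower and 1 higher, with Cd79b at 37.1 and 37.8 FPKM and Cd79a at 2.13 and 0.0957 FPKM. Among 4 measured plasmacytoid dendritic cell markers 2 were lower, with Klk1 at 314.3 and 32.7 FPKM and Bst2 at 156.4 and 73.0 FPKM, while Tcf4 stood at 3.36 and 6.67 FPKM. Siglech, a defining marker of these cells, stood at only 0.115 and 0.0580 FPKM. Of these lists none had a gene listed at 0 in either library.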
